A study of Arabidopsis thaliana with 9 samples.

Results

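WRKY proteins are plant transcription factors named after a run of conserved residues in their DNA-binding domain, which folds around a zinc ion and recognises the W box, a short promoter element. Members of group I carry a pair of such domains, those of group II carry 1, and those of group III carry 1 with a different zinc-binding pattern. The family is best known for relaying signals of pathogens, wounding, salicylate and senescence, often downstream of mitogen-activated protein kinases, and some members act in nutrient supply and root growth. The question here was which WRKY genes were expressed in root tips and whether their transcripts differed when ERF115 was disrupted or overexpressed. ERF115 is an ethylene response factor known for promoting divisions of the quiescent centre and for its part in regeneration after damage.

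The members were chosen by locus: 54 WRKY loci of Arabidopsis thaliana were listed, and a member is a probe set that the array's annotation assigns to 1 of them. The 7 loci with such a probe set were ZAP1, the locus also called WRKY1 (AT2G04880), WRKY6 (AT1G62300), WRKY20 (AT4G26640), WRKY22 (AT4G01250), WRKY42 (AT4G04450), WRKY47 (AT4G01720) and WRKY53 (AT4G23810), each with a single probe set. They make up 13% of the listed loci, so the family is described here through a small share of its members. Of the 22746 probe sets tested 59.1% were matched to a locus, which is a share of probe sets and not of loci. By the standard classification of the family, which was attached after the values had been seen, the 7 comprise 2 of 9 listed loci of group I, 3 of 7 of group IIb, 1 of 7 of group IIe and 1 of 8 of group III. Groups IIa, IIc and IId, with 3, 14 and 6 listed loci, are not described. The other 47 loci, among them WRKY18, WRKY33, WRKY40, WRKY46, WRKY70 and WRKY75, were not analysed here.

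RNA came from root tips of 3 mm, cut from untreated seedlings 5 days old on vertical plates, and was hybridised to 9 single-colour Affymetrix arrays. All 3 genotypes share the Col-0 background: wild type (group Col-0), the erf115 mutant with the insertion SALK_021981 (group erf115ko), and a line that carries the ERF115 reading frame behind the constitutive p35S promoter (group ERF115OE), with 3 arrays each. The mutant is a single insertion allele, the constitutive promoter acts far beyond the cells that normally express ERF115, and the labels do not say how many transgenic lines were used or whether replicates came from separate plants, so p-values measure only the spread between these samples. ERF115 itself was not analysed here, and its level was not used to verify the genotypes. Array medians lay between 5.04 and 5.13, and arrays correlated across probe sets at 0.9955 to 0.9981 within a genotype and 0.9902 to 0.9977 between genotypes. Of the listed marker genes, 2 of 7 for the stem cell niche and meristem, 2 of 5 for root hairs and 1 of 5 for green tissue had a named probe set, and none for root cap, endodermis, xylem or phloem. In Col-0 the root hair expansins EXPA7 and EXPA18 stood above 87.3% and 85.7% of all probe sets, the niche genes BBM and AGL42 above 51.4% and 50.7%, and the photosynthesis gene RCA above 42.7%. In such bulk RNA, fewer cells that express a gene and less of its RNA per cell cannot be told apart.

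All values are log2 RMA values, a scale on which 1 unit is a 2-fold difference. Probe sets bind their targets with different strength, so levels of different genes are not compared. The position of a level among all probe sets serves only to say which members rise above the low end of the scale. By that measure 3 of the 7 members were expressed in Col-0 tips, with means above the median of all probe sets, which was 5.08. They were WRKY6, whose mean exceeded those of 81.7% of probe sets, ZAP1 with 67.3% and WRKY20 with 65.7%. WRKY53 (49.7%), WRKY22 (41.3%) and WRKY47 (41.0%) were low, between the 25th percentile, at 2.90, and the median. WRKY53 was at the limit, with a Col-0 mean of 5.05 ± 0.33 (SD, n = 3), and it exceeded 57.7% of probe sets in erf115ko and 53.9% in ERF115OE. WRKY42 (16.1%) lay below the 25th percentile, where RMA compresses differences. RMA values come without detection calls, and 6 of the 7 would count as expressed with the 25th percentile as the limit. At that limit RCA, the green tissue gene meant to be low in root tips, would count too. Its Col-0 mean exceeded 42.7% of probe sets, a higher position than those of WRKY22 and WRKY47.

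Between the overexpressor and wild type, WRKY47 differed most clearly. This group IIb factor rose 1.59-fold and was the only 1 of the 7 measured members to pass the test, which was limma's moderated test with the Benjamini-Hochberg adjusted p under 0.05 over all 22746 probe sets. None fell. The other group IIb members, WRKY6 and WRKY42, and the group I member ZAP1 stood 1.21-fold to 1.24-fold above wild type without passing. WRKY20 and WRKY22 differed little, and WRKY53 stood at 1.31-fold with the widest interval of the 7. Among all probe sets, 3.75% were called higher and 1.70% lower, so 1 call among 7 members is a small count to read against that background.

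WRKY47 has been linked in Arabidopsis to genes of the cell wall. Its probe set read 4.26, 3.996 and 4.24 on the Col-0 arrays, 4.14, 4.44 and 4.22 on the erf115ko arrays, and 4.83, 4.98 and 4.68 on the ERF115OE arrays. Every overexpressor array was higher than every array of the other genotypes, while wild type and mutant overlapped. The means were 4.17 ± 0.15, 4.27 ± 0.16 and 4.83 ± 0.15 (SD, n = 3). Against wild type the log2 difference of WRKY47 was 0.66 (SE 0.11, 95% interval 0.42 to 0.91, adjusted p = 0.00556), and 1.71% of all probe sets had a smaller p. It passed in every alternative setting in which WRKY47 was tested, at an adjusted p of 0.00534 to 0.0248. Against the mutant it was 0.56 (SE 0.11, 95% interval 0.32 to 0.80, adjusted p = 0.0185), a 1.48-fold rise. That call was lost without erf115ko replicate 1 (adjusted p = 0.0916), erf115ko replicate 3 (0.0792), ERF115OE replicate 1 (0.0503) or ERF115OE replicate 2 (0.0695). The differences were 0.49 to 0.56 in these settings, and 0.49 to 0.65 over all settings with 1 array left out. Genotype accounted for 84.8% of the variance of the WRKY47 values, against a median of 29.8% over all probe sets.

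**Figure D1:**
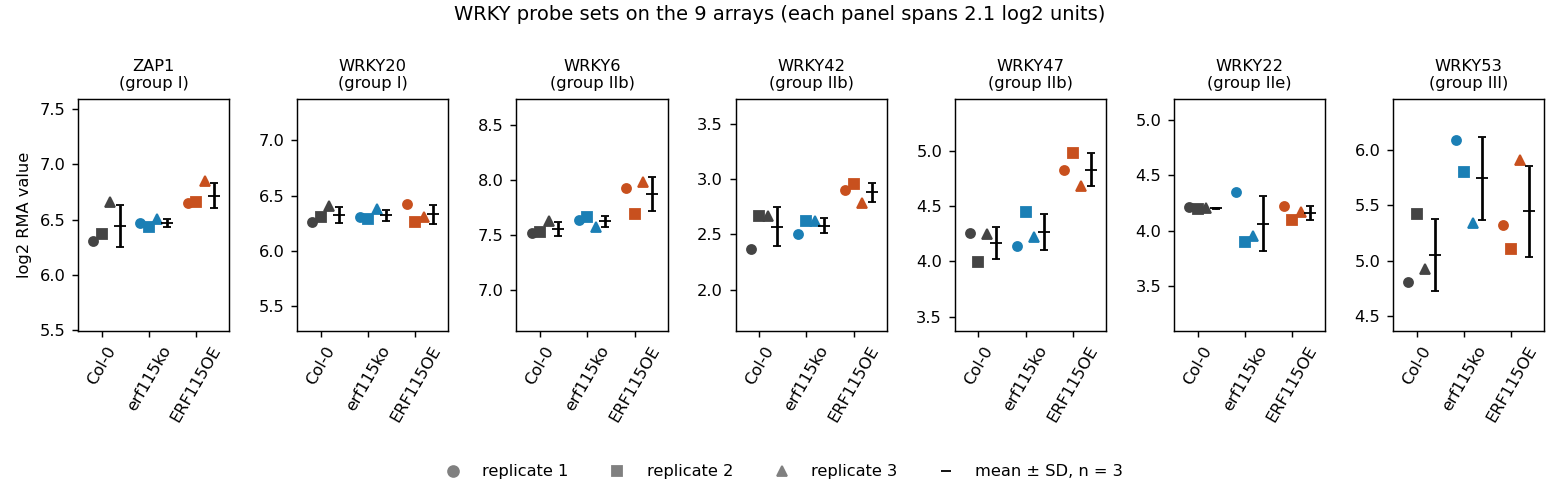
Log2 RMA values of the 7 WRKY probe sets (y axis, a panel each, every panel spanning the same number of log2 units) by genotype (x axis), with a symbol for each replicate and the mean ± SD over 3 arrays in black. The ERF115OE symbols of WRKY47, at 4.68 to 4.98, lie above all others of that panel. Those of WRKY6 and WRKY42 also lie above all others of their panels, by smaller gaps, whereas those of WRKY20 and WRKY22 overlap between genotypes.

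WRKY6 and WRKY42 are close relatives of group IIb, both known in Arabidopsis as regulators of phosphate transfer to the shoot. WRKY6 is also known for its induction in senescence and defence. WRKY6 read 7.51, 7.53 and 7.63 in Col-0, 7.63, 7.67 and 7.57 in erf115ko, and 7.93, 7.69 and 7.98 in ERF115OE. The lowest overexpressor array, replicate 2, exceeded the highest wild-type array by 0.07 and the highest mutant array by 0.03. The log2 difference between overexpressor and wild type was 0.31 (SE 0.08, 95% interval 0.13 to 0.50) and did not pass, at an adjusted p of 0.0564. It did pass without ERF115OE replicate 2 (0.0161), with array weights (0.0179), with a trended prior (0.0254), and with the filter on low values at the median (0.0298) or the 25th percentile (0.0463), and its adjusted p over all alternatives ran from 0.0161 to 0.178. Against the mutant WRKY6 differed by 0.25 (SE 0.08, adjusted p = 0.167), and it passed with array weights alone (0.0227).

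WRKY42 read 2.37, 2.67 and 2.67 in Col-0, 2.50, 2.62 and 2.62 in erf115ko, and 2.90, 2.95 and 2.78 in ERF115OE. As for WRKY6, all overexpressor arrays were above all others. Replicates 2 and 3 of Col-0 held the same value to the last deposited digit, as 56.5% of all probe sets did on at least 2 arrays. The log2 difference from wild type was 0.31 (SE 0.09, 95% interval 0.11 to 0.51, adjusted p = 0.0891), and it was 0.21 without Col-0 replicate 1. With quantile normalization it passed (0.0345), and the adjusted p over all alternatives ran from 0.0345 to 0.245. The log2 difference from the mutant was 0.30 (SE 0.09, adjusted p = 0.123). The 3 measured group IIb members each lay higher on all overexpressor arrays than on any wild-type or mutant array, and only WRKY47 was called. Among all probe sets 9.26% lay clear of wild type in this way and 9.58% clear of the mutant, and the subgroup was singled out after its values had been seen, so nothing is read from this count. The remaining listed members of group IIb, WRKY9, WRKY31, WRKY61 and WRKY72, were not analysed here.

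ZAP1 is a group I protein known as a zinc-dependent activator. It read 6.31, 6.37 and 6.66 in Col-0, 6.47, 6.43 and 6.51 in erf115ko, and 6.65, 6.66 and 6.85 in ERF115OE. Col-0 replicate 3 reached into the overexpressor range, which otherwise lay above all arrays of wild type and mutant. The difference between overexpressor and wild type was 0.27 (SE 0.10, 95% interval 0.06 to 0.49, adjusted p = 0.151). It passed without Col-0 replicate 3 (0.38, adjusted p = 0.0248) and with array weights (0.0282), and the adjusted p over the alternatives reached 0.368. The weights gave Col-0 replicate 3 the lowest value, 0.52, so these settings overlap. Against the mutant ZAP1 differed by 0.25 (SE 0.10, adjusted p = 0.233, or 0.0483 with array weights).

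WRKY20, the other measured group I member, read 6.26, 6.30 and 6.41 in Col-0, 6.30, 6.29 and 6.38 in erf115ko, and 6.43, 6.26 and 6.30 in ERF115OE. It was the steadiest of the 7, with all 9 arrays within 0.17 and a within-genotype SD of 0.07, smaller than that of all but 18.8% of probe sets. Its difference between overexpressor and wild type was 0.01 (SE 0.07), and the 95% interval of -0.15 to 0.17 corresponds to 0.900-fold to 1.12-fold. The sign of this small value turned under several alternatives, among them both other scalings of the arrays. Changes of WRKY20 within that range could not be seen with 3 arrays a genotype. Larger ones need not pass the adjusted threshold either, as WRKY6, at 0.31 with an SE of 0.08, did not.

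WRKY22, of group IIe, is a textbook output of the kinase cascade that flagellin sets off. It read 4.21, 4.198 and 4.202 in Col-0, 4.35, 3.90 and 3.95 in erf115ko, and 4.22, 4.10 and 4.16 in ERF115OE. The wild-type arrays were within 0.01 of each other, while the mutant arrays spread over 0.45 and bracketed them. The difference was -0.04 (SE 0.11, 95% interval -0.28 to 0.19, adjusted p = 0.879) for overexpressor against wild type and -0.14 (SE 0.11, 95% interval -0.38 to 0.10) for mutant against wild type. The latter value rested on single mutant arrays, at -0.28 without erf115ko replicate 1 and -0.056 without erf115ko replicate 2, and did not pass in any alternative. Its IIe partner in that pathway, WRKY29, was not analysed here.

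WRKY53, of group III, is known as a promoter of leaf senescence that responds fast to stress and interacts with the kinase MEKK1. It read 4.80, 5.42 and 4.92 in Col-0, 6.09, 5.80 and 5.34 in erf115ko, and 5.32, 5.11 and 5.91 in ERF115OE. The mean was lowest in wild type, at 5.05 ± 0.33, and was 5.74 ± 0.38 in the mutant and 5.45 ± 0.41 in the overexpressor (SD, n = 3), but the 3 genotypes overlapped. The within-genotype SD of WRKY53 was 0.38, larger than that of 99.5% of all probe sets, whereas the other 6 members lay between 0.07 and 0.15 around the median of 0.11. Its log2 difference between overexpressor and wild type was 0.39 (SE 0.24, 95% interval -0.13 to 0.92, adjusted p = 0.419), or 0.16 without ERF115OE replicate 3. Overexpressor and mutant differed by -0.30 (SE 0.24, 95% interval -0.82 to 0.23, adjusted p = 0.608), and with array weights the sign turned, to 0.067. With 1 array left out this difference ran from -0.53 (without ERF115OE replicate 3) to -0.12 (without erf115ko replicate 1).

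**Figure D2:**
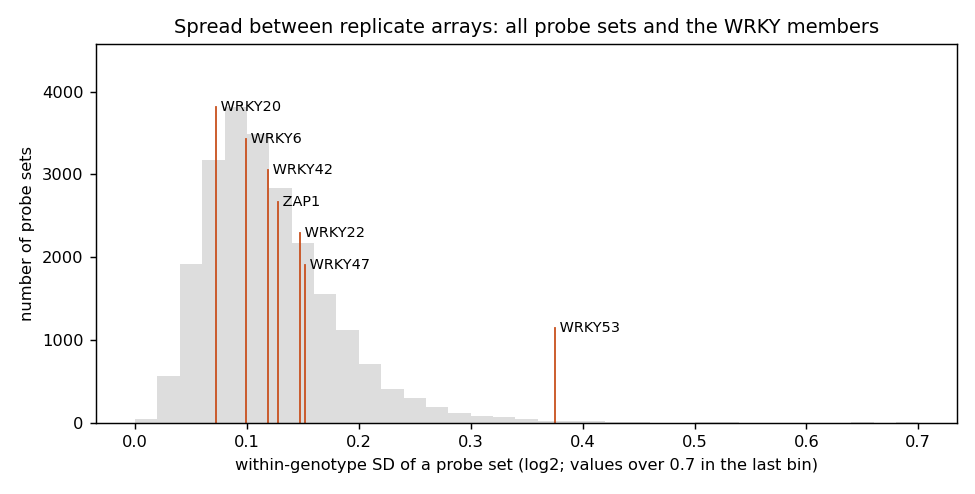
Number of probe sets (y axis) by their SD between replicate arrays within a genotype, on the log2 scale (x axis), for all 22746 probe sets in grey, with the 7 WRKY members as vertical lines whose height has no meaning. WRKY53 lies at 0.38, beyond 99.5% of probe sets, and the other members lie between 0.07 and 0.15.

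In the mutant no WRKY member was called against wild type, as higher or as lower, by limma. Of all probe sets 0.00440% were called higher and 0.00879% lower, so few features of any kind were. At an unadjusted p under 0.05 there was 1 member of 7, WRKY53, against 4.54% of all probe sets. WRKY53 stood 1.62-fold above wild type (log2 difference 0.69, SE 0.24, 95% interval 0.16 to 1.22, adjusted p = 0.939), and 1.58% of all probe sets had a smaller p. That difference stayed above 0 in all alternatives, from 0.52 to 0.89, and passed in none. The moderated test draws the SD of each probe set towards that of typical ones. For WRKY53 the SD of 0.38 is far above the median of 0.11 over all probe sets. In all 3 comparisons its SE and p are therefore smaller, and its interval narrower, than its own spread alone would give. To a lesser degree the same holds for WRKY47, whose SD of 0.15 was larger than that of 75.4% of probe sets. In WRKY53, Col-0 replicate 2 at 5.42 was above erf115ko replicate 3 at 5.34. The other 6 members differed between mutant and wild type by -0.14 to 0.10, and WRKY20, WRKY42 and ZAP1, at -0.00093, 0.01 and 0.03, changed sign under some alternatives. For none of the 7 did the 3 mutant arrays lie clear of the 3 wild-type arrays, which 4.19% of all probe sets did as higher and 3.96% as lower.

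**Figure D3:**
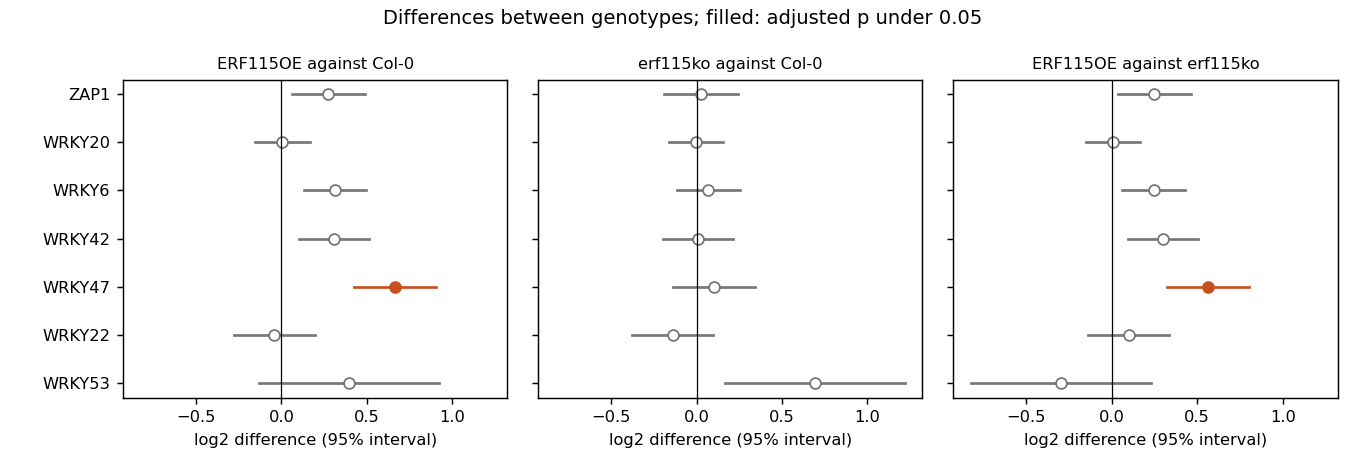
Log2 differences of the 7 WRKY probe sets (points) with 95% intervals from limma (lines) in the 3 comparisons of genotypes, on a common x axis. Filled points passed at an adjusted p under 0.05, which WRKY47 did in both comparisons of the overexpressor, at 0.66 and 0.56.

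The comparison of the overexpressor with the mutant shares the ERF115OE arrays with that of the overexpressor with wild type. WRKY47 was again the 1 member of 7 called higher, against 2.65% of all probe sets, and none was called lower, against 1.03%. WRKY6, WRKY42 and WRKY47 lay clear of wild type on all 3 overexpressor arrays, 3 of 7 members against 9.26% of all probe sets that did so as higher and 10.6% as lower. ZAP1, WRKY6, WRKY42 and WRKY47 lay clear of the mutant, 4 of 7 against 9.58% as higher and 10.6% as lower, and no member did so as lower in either comparison. At an unadjusted p under 0.05 there were 4 members of 7 against wild type, where 18.2% of all probe sets reached that limit in either direction, and 4 of 7 against the mutant, where 15.6% did. The median log2 difference of the 7 members was 0.31 against wild type and 0.25 against the mutant, with 6 of 7 above 0 in each. Over all probe sets 42.2% were above 0 against wild type and 42.3% against the mutant, and the medians were -0.02 in both, and in the mutant against wild type the median was 0.03 for the members and 0.00213 for all. The counts of members lying clear or under the unadjusted limit all come from ZAP1, WRKY6, WRKY42 and WRKY47, on the same 3 ERF115OE arrays. They are not independent of each other, and 7 of 54 listed loci are covered, so nothing is read from them about the family. WRKY20 differed from the mutant by 0.01, with an interval of -0.15 to 0.17. WRKY22 differed by 0.10, with an interval of -0.14 to 0.33, and by 0.24 without erf115ko replicate 1 or 0.015 without erf115ko replicate 2.

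Genes that work with WRKY factors were counted from lists. Of 21 listed partners and upstream kinases 2 had a named probe set, the VQ-motif genes IKU1 (AT2G35230) and AT1G78410, and neither was called in any comparison. IKU1, which acts in endosperm growth and seed size, differed by -0.07 (SE 0.11) between overexpressor and wild type, by 0.05 (SE 0.11) between mutant and wild type and by -0.12 (SE 0.11) between overexpressor and mutant. AT1G78410 differed by 0.03, -0.08 and 0.11 (SE 0.08 each). Of 23 listed immune and salicylate genes the 1 with a named probe set was BIK1 (AT2G39660), a receptor-like cytoplasmic kinase of pattern-triggered immunity. BIK1 rose by 0.65 (SE 0.13, adjusted p = 0.0172) in the overexpressor against wild type and by 0.67 (SE 0.13, adjusted p = 0.0198) against the mutant, and the difference between mutant and wild type was -0.02 (SE 0.13).

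Rapid wound and touch genes, a class of genes induced within minutes of injury, were set beside WRKY53 because the tips were cut at harvest. Of 19 listed genes 7 had a named probe set, and the list was written with earlier results of these arrays known, so its direction is not independent evidence. In the overexpressor 6 of them were called lower than in wild type and none higher, where 1.70% of all probe sets were called lower and 3.75% higher. The exception, CML37, stood at -0.26 (SE 0.08, adjusted p = 0.0913). The gene with the smallest p was AT4G27280, an EF-hand gene, at -1.50 (SE 0.17, adjusted p = 0.000789). In the mutant none of the 7 was called, with a median of -0.69 and the smallest p at AT4G27654 (-1.06, SE 0.21, adjusted p = 0.478). Between overexpressor and mutant 1 was called lower, AT4G27652 (-0.62, SE 0.14, adjusted p = 0.0405).

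On single arrays, the mean of these 7 genes was 5.86, 6.33 and 6.07 in Col-0, 5.63, 5.24 and 5.26 in erf115ko, and 4.67, 5.27 and 4.83 in ERF115OE. Every wild-type array lay above all other arrays in this mean, whereas WRKY53 was on average lowest there. Within Col-0 replicate 2 held the highest value of both, and within erf115ko replicate 1 did. Within ERF115OE the highest WRKY53 value was on replicate 3 and the highest mean of the 7 genes on replicate 2. The part of wounding in the WRKY53 values was not tested.

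**Figure D4:**
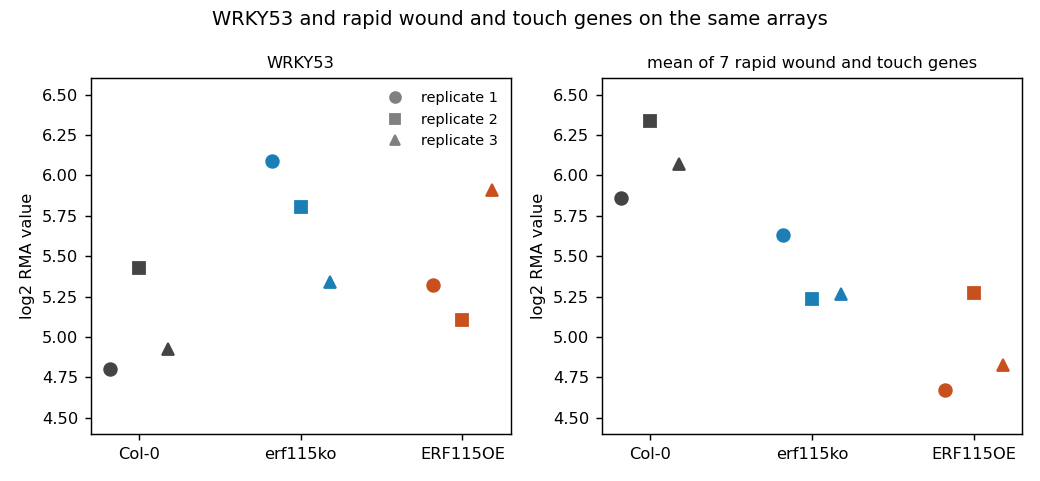
Log2 RMA values of WRKY53 (left) and of the mean of the 7 measured rapid wound and touch genes (right) on the 9 arrays (y axis) by genotype (x axis), with a symbol for each replicate. The mean of the 7 genes is 5.86 to 6.33 in Col-0, above all other arrays, while WRKY53 overlaps between all genotypes.

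Marker genes of cell types also moved with the overexpressor, in which WRKY47 was high. The marker lists, too, were written with earlier results of these arrays known, so their directions are not independent evidence. The mean of EXPA7 and EXPA18, which mark root hair cells, was 7.84 to 8.29 on the Col-0 arrays, 8.04 to 8.16 on the erf115ko arrays and 8.76 to 8.998 on the ERF115OE arrays. Both genes were called higher in the overexpressor against wild type, EXPA7 by 0.81 (SE 0.08, adjusted p = 0.000438) and EXPA18 by 0.85 (SE 0.17, adjusted p = 0.0137). AGL42, a gene of the quiescent centre, was called lower by 0.52, from 5.14 ± 0.19 to 4.62 ± 0.04 (SD, n = 3, adjusted p = 0.00789 in limma), and BBM differed by -0.30 (SE 0.14, adjusted p = 0.277). The green tissue gene RCA differed by 0.15 (SE 0.11, adjusted p = 0.499) between overexpressor and wild type and by 0.27 (SE 0.11, adjusted p = 0.9996) between mutant and wild type, the comparison in which WRKY53 stood highest. As signs of RNA quality, the 3'-to-5' difference of the first actin control was 4.32 ± 0.14 in Col-0, 4.43 ± 0.10 in erf115ko and 4.34 ± 0.18 in ERF115OE, and that of the second was 2.20 ± 0.11, 2.22 ± 0.03 and 2.04 ± 0.09 (SD, n = 3). Those of GAPDH were 0.88 ± 0.19, 0.81 ± 0.05 and 0.64 ± 0.16 for the first control and 0.20 ± 0.03, 0.20 ± 0.10 and 0.19 ± 0.07 for the second. The part of cell composition and RNA quality in the WRKY values was not tested.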

How the data were processed

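The deposited values are log2 expression values that the authors made with RMA in affy 1.36, per the submitters' processing notes, from biotin-labelled RNA on single-colour arrays. RMA subtracts background, equalises the distributions of the arrays and combines probes into 1 value per probe set, so a shift shared by most transcripts is removed. The annotation version and genome build of the array are not given in the sources used here, and no coordinates are printed. Of 22810 probe sets, 64 controls were left out and 22746 tested. Probe sets with several genes (503) named none, and 8730 were unnamed. Loci and symbols came from RefSeq's gene table (TAIR10.1).

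Values were fitted in limma 3.58.1 (R 4.3.3) with 1 mean per genotype, all 9 arrays and eBayes (degrees of freedom: 6 residual, 4.49 prior). Tests of the 3 comparisons were two-sided, with Benjamini-Hochberg adjustment over all probe sets and a threshold of 0.05. The code was tested on simulated data. The number of arrays limits the precision, with a median SE of 0.09 over all probe sets. Alternatives were median centring, quantile normalization, filters on low values, a trended prior, array weights, only the 6 arrays compared, the replicate number as a block, and leaving out each array. All measured WRKY loci were named, and the member of smallest p in each list. The members, lists and rules were chosen with earlier results of these data known.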

Additional observations from a re-analysis of the deposited data

How the results depend on the processing

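WRKY47 kept its call against wild type under all alternatives that tested it; the filter at the median removes it. The 1 member called higher in the overexpressor than in wild type became 3 with array weights, and 2 each with quantile normalization, a trended prior and the filter at the 25th percentile, and it was 1 to 2 with 1 array left out. Against the mutant the count was 3 with array weights, 0 with the filter at the median, and 0 to 1 with 1 array left out. Array weights also raised the calls over all probe sets, from 602 to 1079 higher and from 235 to 683 lower against the mutant. No alternative gave a member called lower in the overexpressor, or called at all in the mutant against wild type. Against wild type, 854 probe sets were higher and 387 lower as deposited, 753 and 576 with median centring. Over all alternatives the higher ones ranged from 522 (without Col-0 replicate 1) to 1112 (array weights).

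Of 345 values of single members under alternatives, 309 kept direction and side of the threshold, 10 newly passed, 4 lost their call and 22 changed sign, none of these called. With array weights WRKY20 stood at 0.039 for mutant against wild type and -0.028 for overexpressor against mutant, and WRKY53 at 0.067 for the latter. With median centring WRKY20 stood at -0.029 and -0.0010 in the overexpressor against wild type and mutant, and WRKY42 at -0.017 and ZAP1 at -0.00066 in the mutant. Quantile normalization put WRKY20 at -0.015 in the overexpressor against wild type. With 1 array left out, WRKY20 ran from -0.042 to 0.048 (overexpressor against wild type), -0.041 to 0.043 (against mutant) and -0.033 to 0.040 (mutant against wild type), and in the last comparison WRKY42 ran from -0.091 to 0.060 and ZAP1 from -0.042 to 0.13. With the 25th percentile as the limit, 6 members in place of 3 counted as expressed. The causes were not tested.

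No clear pairing of the arrays by replicate number was seen. Deviations from the genotype means correlated at -0.21 to 0.14 between arrays of 1 number, and 4 of 9 arrays matched best an array of their own number. Whether arrays of 1 number shared a harvest or batch was not tested. With the replicate block WRKY47 kept both calls (adjusted p = 0.0136 and 0.0346), and the counts were 1 higher and 0 lower in both comparisons of the overexpressor and 0 in the mutant. Differences near the low end of the scale, as in WRKY42, are compressed by RMA.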

Other observations

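The named members were spread unevenly over the chromosomes, as read from their locus names. On chromosome 4, 5 of 13 listed WRKY loci had a named probe set, on chromosome 1 it was 1 of 10 and on chromosome 2 it was 1 of 16, and none of the 4 on chromosome 3 or the 11 on chromosome 5 had one. The share of all loci with a named probe set on each chromosome was not counted, so nothing is read from this spread.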
